A study of Bos taurus with 6 samples.

Results

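The integrin and laminin chains of bovine mammary epithelial cells (bMECs) are the receptors that hold the cells to the matrix and a main protein of the sheet they stand on. The members are the rows of the deposited FPKM table (read counts scaled to gene model length and library size) whose symbol has the form of an integrin alpha chain, an integrin beta chain or a laminin chain, 36 of 32774 genes. They comprise 17 alpha chains, 8 beta chains and 11 laminin chains. The count table holds 26 of them. Gene models with a numbered copy suffix were outside this rule, which left out 2 copies of *LAMA4*. The cells came from mammary tissue of a Chinese Holstein dairy cow in lactation and were grown with serum, hydrocortisone and insulin. The *ACADSB*-/- group (3 libraries) was edited by transient transfection of a plasmid with Cas9, a guide against *ACADSB* and green fluorescent protein, followed by sorting and culture of single positive cells. The second group (3 libraries), called WT here, is labelled control and is also named negative control in the methods, with no word on whether it received a plasmid. The libraries were made from pooled RNA, and it is not stated whether a group's 3 libraries represent separate cultures, so the p-values measure the spread between libraries, which may be technical. The series' design can be read as 3 knockout lines, while the study describes the edited cells as monoclonal, so the history of the founder cell and the loss of *ACADSB* cannot be told apart in any difference below.

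Each integrin is a pair of 1 alpha and 1 beta chain that crosses the cell membrane. The alpha chain largely sets which matrix protein is bound, and the beta chain carries most of the contacts to the actin cytoskeleton or, in the case of *ITGB4*, to keratin filaments. Laminins are cross-shaped trimers of an alpha, a beta and a gamma chain in the basement membrane, the thin matrix layer under epithelia. In the mammary gland, adhesion of epithelial cells to laminin through integrins is known to be needed for the secretory state.

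The libraries held 30550275 to 34983965 counts. *ACADSB*, the edited gene, had 7 to 15 counts in *ACADSB*-/- libraries and 20 to 38 in WT libraries, and fell by 1.60 in log2 (standard error, SE, 0.459, adjusted p = 0.0036 by the quasi-likelihood test of edgeR). Of 12 luminal markers 7 were tested, with 3 higher (*EPCAM* by 0.60, *FOXA1* by 0.57 and *CDH1* by 0.42 in log2), 2 lower (*KRT18*, which fell by 0.56, and *KRT8*, which fell by 0.19) and 2 short of the threshold. Of 8 basal markers 5 were tested, with 2 higher (*ACTA2* by 0.73 and *KRT5* by 0.16), 2 lower (*KRT17*, which fell by 2.99, from 99.6 to 12.6 CPM, and *KRT14*, which fell by 0.92) and 1 short of the threshold. The summed level of the luminal markers was 3062 to 3336 FPKM in *ACADSB*-/- and 3953 to 4080 in WT libraries. Most of it was *KRT18* (1508 to 1698 against 2300 to 2363 FPKM) and *KRT8* (1333 to 1423 against 1500 to 1596 FPKM). The basal markers summed to 2217 to 2342 and 2004 to 2092 FPKM, most of it *KRT5* (2088 to 2206 against 1816 to 1905 FPKM). The other markers did not all follow these sums, and the median log2 fold change was 0.10 for the luminal and −0.0187 for the basal markers. The part of these markers in the levels of the chains was not tested. Of the luminal regulators, *ESR1*, *PGR*, *ELF5* and *KIT* were listed at 0 in every library, *GATA3* reached at most 0.0780 FPKM and *FOXA1* was detected, with 153 to 228 counts in *ACADSB*-/- and 106 to 140 in WT libraries. The 6 milk protein genes present in the FPKM table reached a summed level of at most 0.0417 FPKM in any library. Keratins and adhesion genes of epithelium were thus present, while these 6 milk protein genes were at or close to 0.

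Of the 36 chains, 25 passed the filter on low counts and were tested. Of these, the edited cells had 8 at a higher and 12 at a lower level at an edgeR adjusted p under 0.05, and 5 missed that threshold, where the corresponding shares among all 13720 tested genes were 29.7% and 28.6% (58.2% in either direction). With a change of at least 2-fold in addition, 2 chains were higher (*ITGA10* and *ITGA7*) and 4 lower (*ITGB3*, *ITGA8* and *ITGA5* among them), against 5.3% and 4.92% of the tested genes (10.2% in either direction). The groups were separate in CPM (counts scaled to the TMM-adjusted library size, with no length) for 20 of the 25 chains, and for 63.6% of the tested genes. The median log2 fold change of the 25 chains was −0.26, beside 0.00493 over all tested genes. *ITGB3* passed the filter through the WT libraries only. *ITGA7* passed it through the *ACADSB*-/- libraries, since WT replicate 2, with 8 counts, was under the minimum of 10. Its WT libraries alone would not have passed, as the minimum was needed in 3 libraries. The other 11 chains were at or near 0 in both groups and are given further below.

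**Figure D1:**
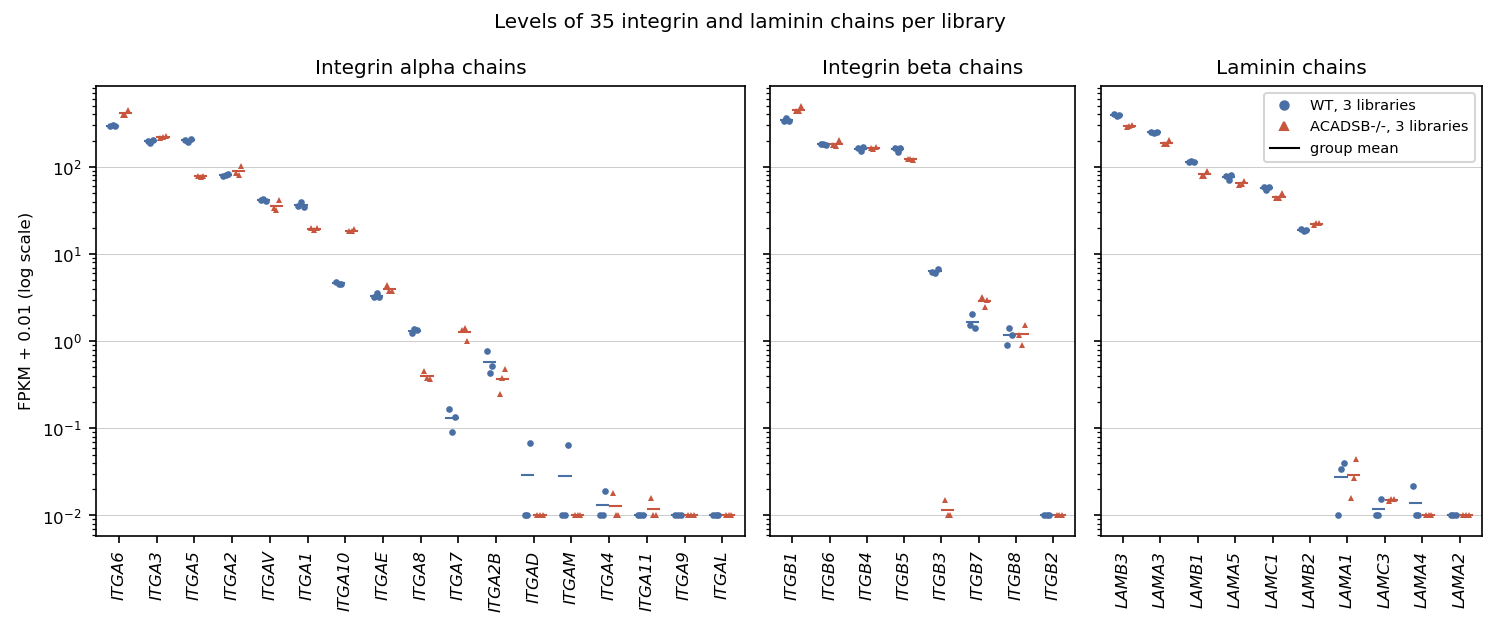
Level of 35 of the chains in each library, as FPKM + 0.01 on a log scale, with circles for the 3 WT and triangles for the 3 *ACADSB*-/- libraries and short bars for the group means. *ITGB1* had the highest mean among the integrin chains in WT (345.8 FPKM) and in *ACADSB*-/- (455.3 FPKM), and *ITGB3* stood at 6.34 FPKM in WT and at or near 0 in *ACADSB*-/- libraries.

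The alpha chains are described by the matrix protein they are known to bind, a grouping drawn up after the values were seen. The chains of receptors for the RGD motif of fibronectin, vitronectin and related proteins were 3 lower, 0 higher and 1 not past the test. Among all tested genes 28.6% were lower and 29.7% higher, and the group was not tested against these shares. *ITGA5*, the alpha chain of the main fibronectin receptor (NCBI gene 281873), had an FPKM of 78.8, 77.1 and 79.4 in *ACADSB*-/- cells and of 205.7, 192.0 and 211.1 in WT cells. All WT values were more than double the highest *ACADSB*-/- value. The gene fell by 1.41 in log2 (SE 0.0488, edgeR adjusted p = 9.1e-21), and was 2.65-fold lower. *ITGA8*, which pairs with *ITGB1* to bind nephronectin and fibronectin (NCBI gene 511976), had a far lower level, with counts of 93, 67 and 67 in the edited and 243, 252 and 252 in the WT libraries. In FPKM this was 0.390 ± 0.0464 against 1.31 ± 0.0776 (SD, n = 3). It fell by 1.77 (SE 0.167, edgeR adjusted p = 2.2e-10).
*ITGAV*, the alpha chain shared by the receptors with *ITGB3*, *ITGB5*, *ITGB6* and *ITGB8*, had 33.3, 32.1 and 41.5 FPKM in *ACADSB*-/- and 41.9, 42.4 and 40.9 in WT libraries. *ACADSB*-/- replicate 3 lay within the WT range in FPKM, while in CPM the groups did not overlap. It fell by 0.26 in log2 (SE 0.0698, edgeR adjusted p = 0.0034). With limma on log2(FPKM + 1) without a filter, the adjusted p was 0.11. *ITGA2B*, the alpha chain of the platelet fibrinogen receptor, was at 0.358 ± 0.118 FPKM against 0.566 ± 0.182 (SD, n = 3), with overlapping groups and a log2 change of −0.71 (SE 0.320, edgeR adjusted p = 0.0596). It passed without *ACADSB*-/- replicate 3 (−0.95, edgeR adjusted p = 0.0379) and without WT replicate 2 (−0.90, edgeR adjusted p = 0.0269), and was −0.42 without WT replicate 1 (edgeR adjusted p = 0.348) and −0.47 without *ACADSB*-/- replicate 1 (edgeR adjusted p = 0.258).

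The 3 alpha chains grouped here as laminin-binding (*ITGA3*, *ITGA6* and *ITGA7*) were all higher in *ACADSB*-/- bMECs, beside 29.7% of all tested genes. That count depends on the grouping, which kept all collagen-binding chains apart. Among those, *ITGA1*, which binds collagens and laminin, fell, and *ITGA2* did not pass the test. *ITGA6*, which pairs with *ITGB4* in hemidesmosomes and also with *ITGB1*, was the most abundant alpha chain in both groups. It had 398.9, 390.0 and 444.6 FPKM in *ACADSB*-/- and 293.8, 305.3 and 291.8 in WT libraries. The lowest *ACADSB*-/- value was above the highest WT value, and the gene rose by 0.44 in log2 (SE 0.0481, edgeR adjusted p = 5.8e-09). *ITGA3*, the partner of *ITGB1* in another laminin receptor of epithelia, had 215.9, 218.3 and 223.9 FPKM against 197.2, 187.3 and 203.3. The difference was small, with a log2 change of 0.13 (SE 0.0467, edgeR adjusted p = 0.0192). The call of *ITGA3* ended without WT replicate 1 (0.13, edgeR adjusted p = 0.0509) and without WT replicate 2 (0.0837, edgeR adjusted p = 0.118). *ITGA7*, a laminin receptor chain best known from muscle (NCBI gene 506953), had counts of 150, 141 and 101 in the edited and 17, 8 and 13 in the WT libraries. Its level stayed low, at 1.25 ± 0.218 against 0.122 ± 0.0390 FPKM (SD, n = 3). It rose by 3.31 in log2 (SE 0.296, edgeR adjusted p = 7.7e-11), 9.89-fold, the largest fold among the chains that rose. This chain was in the test through its *ACADSB*-/- counts, as its WT counts alone were under the filter.

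Of the 4 collagen-binding alpha chains, all of which pair with *ITGB1*, 1 rose, 1 fell, 1 did not pass the test and *ITGA11* had 1 read in 1 library. Over all tested genes 29.7% rose and 28.6% fell. *ITGA10*, a collagen receptor chain best known from cartilage (NCBI gene 506526), had 18.3, 18.3 and 19.3 FPKM in *ACADSB*-/- and 4.74, 4.56 and 4.50 in WT libraries. The values within a group lay close together, and the gene rose by 1.98 in log2 (SE 0.0650, edgeR adjusted p = 2.2e-21), 3.95-fold. *ITGA1*, a receptor chain for collagens and laminin, had 19.6, 18.7 and 19.8 against 35.4, 39.8 and 34.6 FPKM. It fell by 0.95 (SE 0.0513, edgeR adjusted p = 6.4e-16), just short of 2-fold. *ITGA2*, the most abundant of the collagen-binding chains, had 85.6, 81.3 and 102.6 FPKM in *ACADSB*-/- and 78.9, 80.7 and 82.5 in WT libraries. The groups overlapped, and the log2 change was 0.12 (SE 0.0628, edgeR adjusted p = 0.112). It passed without *ACADSB*-/- replicate 2 (0.18, edgeR adjusted p = 0.0156), and was 0.0239 without *ACADSB*-/- replicate 3. In *ACADSB*-/- bMECs *ITGA10* and *ITGA1* stood at nearly the same level, 18.6 ± 0.571 and 19.4 ± 0.585 FPKM, while in WT *ITGA1* was at 36.6 ± 2.84 and *ITGA10* at 4.60 ± 0.127 FPKM (SD, n = 3). *ITGA1* and *ITGA2* lie side by side on chromosome 20 in the same orientation, 20517 bases apart.

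**Figure D2:**
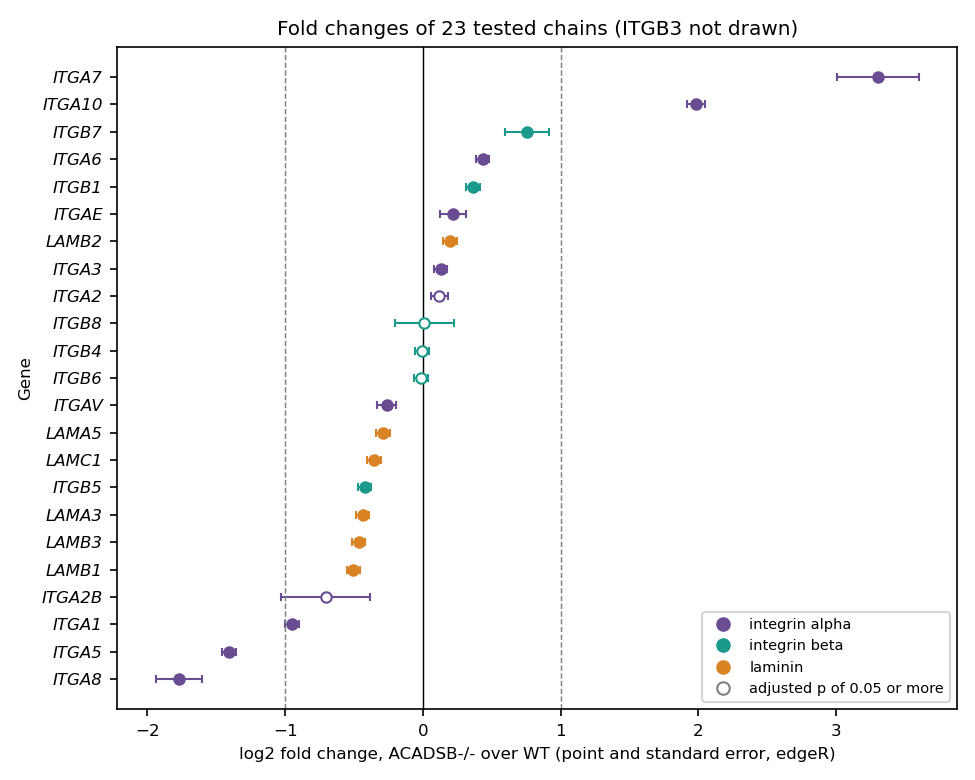
Log2 fold change (*ACADSB*-/- over WT) and standard error from edgeR for 23 tested chains, coloured by class, with open symbols for an adjusted p of 0.05 or more and dashed lines at 2-fold. *ITGA7* and *ITGA10* lie above 2-fold, and *ITGA8* and *ITGA5* lie below it. *ITGB3* is not drawn because it had 1 count in all *ACADSB*-/- libraries together.

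The 7 tested beta chains split into 2 that were higher in the edited cells, 2 that were lower and 3 that did not pass. This share of calls was near the 58.2% over all tested genes. *ITGB3*, the beta chain of a receptor for vitronectin and fibrinogen (NCBI gene 282642), had counts of 1, 0 and 0 in the edited and 1170, 1046 and 1224 in the WT libraries. In FPKM the *ACADSB*-/- libraries were at 0.00502, 0 and 0, and the WT libraries at 6.21, 6.01 and 6.79. The summed counts, scaled to the library sizes, were 3563 times lower in the edited cells, with a 95% exact interval of 639.1 to 140776 that covers counting error only. The chain thus had at least 1046 counts in every WT library and at most 1 in any library of the edited cells. Its partner *ITGAV* remained at 35.7 ± 5.11 FPKM in *ACADSB*-/- bMECs (SD, n = 3).
The other beta chains that pair with *ITGAV* behaved differently from one another. *ITGB5*, a vitronectin receptor chain, had 122.2, 124.1 and 119.4 FPKM in *ACADSB*-/- and 165.0, 149.5 and 164.4 in WT libraries. It fell by 0.42 in log2 (SE 0.0499, edgeR adjusted p = 2.0e-08), with no overlap. *ITGB6*, which forms an epithelial receptor that activates latent TGF-beta, had 177.6, 173.5 and 205.3 against 185.5, 184.2 and 177.6 FPKM. The WT values lay within the *ACADSB*-/- range, and the log2 change was −0.0111 (SE 0.0516, edgeR adjusted p = 0.867), with a sign that changed between scalings. *ITGB8*, another chain of TGF-beta activating receptors, was at 1.19 ± 0.312 and 1.16 ± 0.262 FPKM (SD, n = 3) and had a log2 change of 0.00945 (SE 0.214, edgeR adjusted p = 0.973). Its sign turned without *ACADSB*-/- replicate 3 (−0.18) or without WT replicate 1 (−0.15).
*ITGB1*, the shared partner of most alpha chains, was the most abundant integrin chain in both groups. It had 439.1, 432.9 and 494.0 FPKM in *ACADSB*-/- and 339.6, 361.2 and 336.6 in WT libraries. The groups did not overlap, and it rose by 0.36 in log2 (SE 0.0491, edgeR adjusted p = 2.4e-07). *ITGB4*, the hemidesmosomal beta chain, had 163.1, 162.4 and 167.9 against 162.9, 150.3 and 170.7 FPKM. The *ACADSB*-/- values fell inside the WT range, and the log2 change was −0.00691 (SE 0.0495, edgeR adjusted p = 0.913), again with a sign that depended on the scaling.

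Chains known mainly from leukocytes were low or at 0. *ITGB7*, a beta chain of lymphocyte homing receptors, had counts of 292, 194 and 241 in the edited and 132, 163 and 118 in the WT libraries, and rose by 0.76 in log2 (SE 0.162, edgeR adjusted p = 2.1e-04). *ITGAE*, its partner on lymphocytes that bind E-cadherin, was at 3.94 ± 0.375 and 3.30 ± 0.216 FPKM (SD, n = 3). The log2 fold change of *ITGAE* was 0.22 (SE 0.0950, edgeR adjusted p = 0.0462). This call ended with DESeq2 (adjusted p = 0.073), without *ACADSB*-/- replicate 1 (edgeR adjusted p = 0.301), without WT replicate 1 (edgeR adjusted p = 0.126) and without WT replicate 3 (edgeR adjusted p = 0.128), among others. The model of *ITGAE* also holds *GSG2* on the opposite strand, a gene with 819 counts in all *ACADSB*-/- and 706 in all WT libraries, and the counting is not stated to use strand. *ITGB2*, the beta chain of the leukocyte receptors, and *ITGAL* were listed at 0 in every library, as was *ITGA9*. *ITGAM* and *ITGAD* had 6 and 7 reads in WT replicate 3 and 0 in the other 5 libraries, as recovered from the FPKM values. *ITGA4* had 1 read in 1 library of each group.
Markers of cells other than epithelium moved beside these chains. Of 8 leukocyte markers 5 were tested, of which 4 were lower and 1 not past the test, with a summed level of 63.0 to 64.3 FPKM in *ACADSB*-/- and 110.4 to 117.0 FPKM in WT libraries, while the defining marker *PTPRC* was at 0 in every library. Of 9 endothelial markers 4 were tested, with 1 higher, 2 lower and 1 short of the threshold, and a summed level of 1.07 to 1.55 against 3.78 to 3.90 FPKM. The endothelial markers *CDH5*, *FLT1*, *CLDN5* and *ESAM* were at 0 in every library. Of 6 platelet and megakaryocyte markers 1 was tested and did not pass, and *PF4*, *PPBP* and *GP6* were at 0 in every library (summed level 0.792 to 1.05 against 1.24 to 1.47 FPKM). Of 10 fibroblast markers 4 were tested, with 1 higher, 1 lower and 2 short of the threshold, and a summed level of 597.4 to 624.4 against 498.3 to 536.7 FPKM. Nearly all of that sum was *DCN* (594.8 to 620.9 against 495.2 to 532.9 FPKM), while *COL3A1* fell by 1.17 and the median of the 4 was −0.24. In such bulk libraries, fewer cells of a type and less RNA per cell cannot be told apart, and the part of these cell types in the levels of *ITGB3*, *ITGB7* and the other chains was not tested.

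Of the 7 tested laminin chains 6 were lower, 1 was higher and 0 did not pass the test, and none overlapped between the groups, beside 28.6% lower, 29.7% higher and 63.6% without overlap among all tested genes. The remaining 4 were *LAMA1*, with counts of 2, 5 and 10 in the edited and 0, 7 and 9 in the WT libraries, *LAMC3* with at most 1 read in any library, *LAMA4* with 1 read in all, and *LAMA2*, at 0 in every library.
*LAMB3*, a beta chain of the laminin that anchors epithelia at hemidesmosomes, had 283.4, 297.7 and 298.7 against 405.9, 384.8 and 395.7 FPKM, and fell by 0.47 (SE 0.0459, edgeR adjusted p = 5.7e-10). *LAMA3*, the alpha chain of that laminin, had 184.1, 184.5 and 201.4 against 251.5, 246.1 and 254.7 FPKM, and fell by 0.44 (SE 0.0467, edgeR adjusted p = 3.1e-09). The log2 changes of *LAMA3* and *LAMB3* differed by less than their standard errors.
The other abundant chains build the laminins with *LAMA5*, which are found in most adult epithelial basement membranes. *LAMB1* had 79.6, 79.0 and 88.6 FPKM in *ACADSB*-/- and 112.8, 116.9 and 112.9 in WT libraries, and fell by 0.50 (SE 0.0479, edgeR adjusted p = 2.5e-10). *LAMC1*, the gamma chain of most laminins, was at 45.7 ± 3.41 against 57.0 ± 2.56 FPKM and fell by 0.35 (SE 0.0519, edgeR adjusted p = 9.1e-07). *LAMA5* was at 64.6 ± 3.53 against 77.1 ± 4.97 FPKM and fell by 0.29 (SE 0.0515, edgeR adjusted p = 1.9e-05). The exception was *LAMB2*, the beta chain that can take the place of *LAMB1*, with 22.2 ± 0.771 against 18.9 ± 0.562 FPKM (SD, n = 3 in each case), which rose by 0.20 (SE 0.0531, edgeR adjusted p = 0.0020).

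FPKM is scaled by the length of the gene model, so the levels of chains can be added. The 17 alpha chains summed to 856.9, 841.8 and 936.7 against 862.9, 857.6 and 873.9 FPKM, which overlapped (log2 difference 0.0210, exact two-sided permutation test, p = 1, where 0.1 is the smallest that 3 against 3 libraries allow). That difference changed sign with CPM in place of FPKM (−0.0644) and without *ACADSB*-/- replicate 3 (−0.0261). The 8 beta chains summed to 906.4, 896.2 and 991.0 against 861.6, 854.7 and 858.8 FPKM (log2 difference 0.12, exact permutation test, p = 0.1). Without *ACADSB*-/- replicate 3 it was 0.0704, and with CPM in place of FPKM 0.0455 (exact permutation test, p = 0.4).
The make-up of the integrin classes differed between the groups. *ITGA5* formed 23.5% ± 0.942 of the alpha chain FPKM in WT and 8.94% ± 0.406 in *ACADSB*-/- bMECs, and *ITGA6* 34.3% ± 1.14 and 46.8% ± 0.600 (SD, n = 3). By the ligand grouping above, the RGD-binding alpha chains summed to 246.5 ± 9.18 FPKM in WT and 114.8 ± 6.14 in *ACADSB*-/- bMECs. The chains grouped as laminin-binding, without *ITGA1* and the other collagen-binding chains, summed to 493.0 ± 2.03 and 631.8 ± 32.8 FPKM. The collagen-binding chains summed to 121.9 ± 3.04 and 127.9 ± 12.3 FPKM, within the spread. *ITGB1* formed 40.3% ± 1.71 of the beta chain FPKM in WT and 48.9% ± 0.852 in *ACADSB*-/- bMECs, and *ITGB5* 18.6% ± 0.957 and 13.1% ± 0.953. These shares are a description and were not tested.

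**Figure D3:**
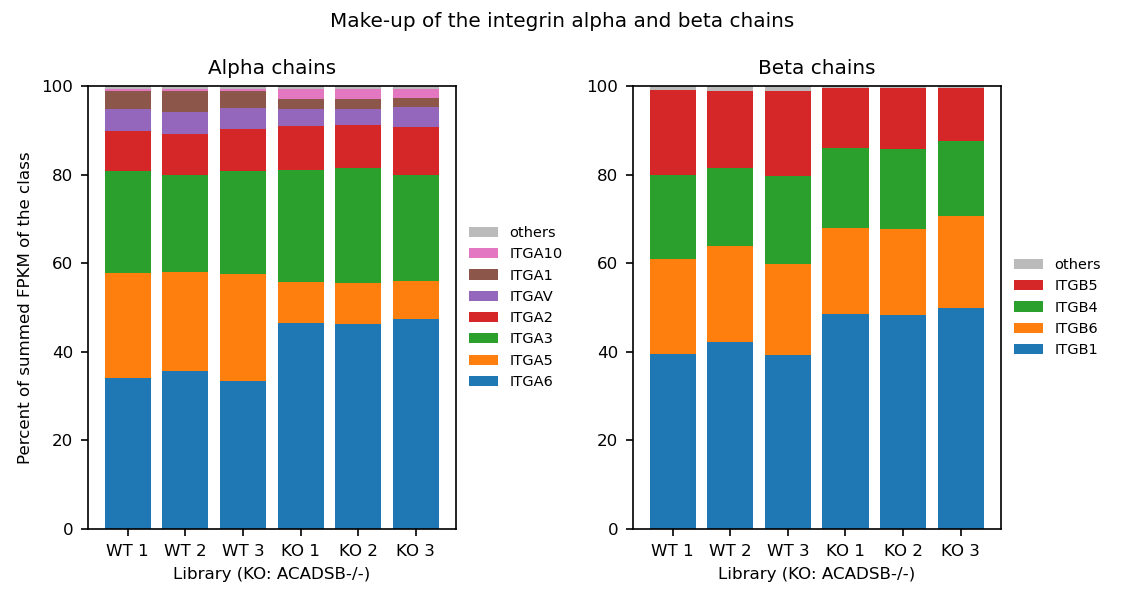
Share of each integrin chain in the summed FPKM of the alpha or the beta chains, in percent, for each library (stacked bars from 0 to 100, KO for *ACADSB*-/-), with chains under 2% in both groups pooled as others. *ITGA5* and *ITGB5* took a smaller share in all 3 *ACADSB*-/- libraries than in any WT library, and *ITGA6* and *ITGB1* a larger one.

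Chains that join in 1 receptor or trimer were compared as FPKM ratios within each library. Of 11 ratios computed 9 are described, and for 7 of these the groups did not overlap, each with an exact two-sided permutation p of 0.1, the smallest possible, and 0.122 after adjustment over the 11. The ratio of *ITGA5* to *ITGB1*, the fibronectin receptor pair, was 0.588 ± 0.0501 in WT and 0.173 ± 0.0105 in *ACADSB*-/- bMECs (SD, n = 3), the largest shift among these, with a log2 difference of −1.77. The ratio of *ITGA6* to *ITGB4* was 1.85 ± 0.165 and 2.50 ± 0.131.
Within the laminins with *LAMA5* the shifts were small. *LAMA5* to *LAMC1* was 1.35 ± 0.0277 and 1.42 ± 0.0316, and *LAMB1* to *LAMC1* was 2.01 ± 0.134 and 1.80 ± 0.0179 (WT first, SD, n = 3). Of the remaining pairs, *ITGA2* to *ITGB1* had a log2 difference of −0.25, *ITGA3* to *ITGB1* −0.23 and *ITGAV* to *ITGB6* −0.25. The ratios of *ITGB5* to *ITGAV* (3.83 ± 0.268 and 3.47 ± 0.523, exact permutation p = 0.4, n = 3) and of *ITGB8* to *ITGAV* (0.0277 ± 0.00607 and 0.0331 ± 0.00478, exact permutation p = 0.3, n = 3) overlapped between the groups. The ratio of *ITGB3* to *ITGAV* could not be formed because *ITGB3* was at 0 in 2 *ACADSB*-/- libraries.

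**Figure D4:**
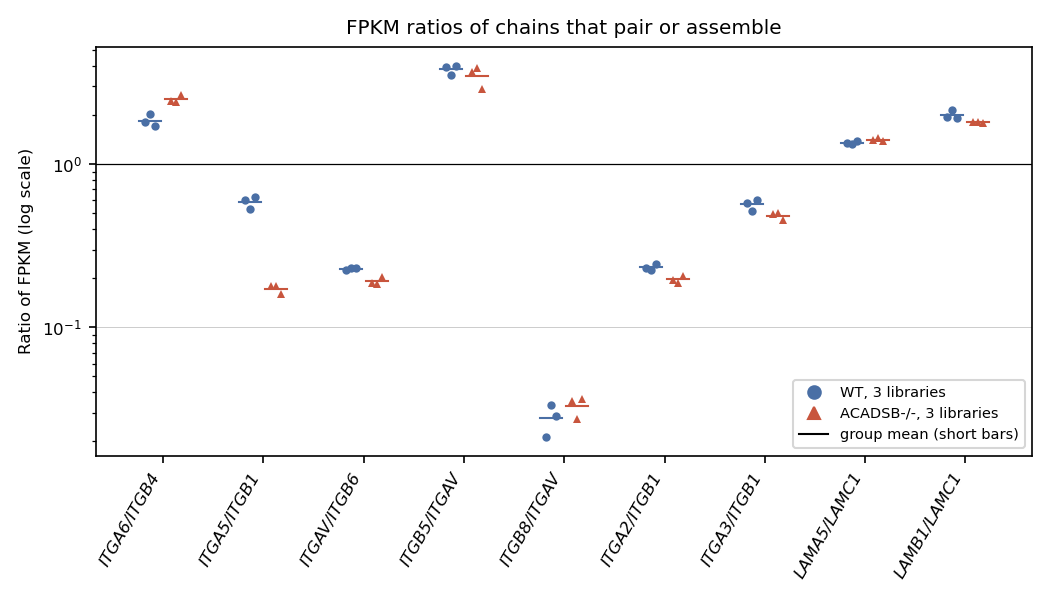
Ratio of FPKM of 2 chains that pair or assemble, on a log scale, with circles for the 3 WT and triangles for the 3 *ACADSB*-/- libraries and short bars for the group means. The fibronectin receptor ratio *ITGA5*/*ITGB1* stood at 0.588 in WT and 0.173 in *ACADSB*-/- bMECs, and *ITGA6*/*ITGB4* at 1.85 and 2.50.

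Genes that work with these chains were taken from 6 lists of textbook knowledge, written with earlier results of these data known. Of 21 ligands of integrins found in the count table, 20 were tested, with 5 higher, 12 lower and 3 short of the threshold. For this and the lists below, the shares over all tested genes were 29.7% higher, 28.6% lower and 58.2% in either direction, and no list was tested against them. Each gene said below to have risen or fallen passed the edgeR test over all genes. The median log2 fold change of the ligands was −0.59, beside 0.00493 over all tested genes. *LTBP1*, which anchors latent TGF-beta in the matrix, fell by 5.71 in log2, from 63.9 to 1.22 CPM. *CTGF*, a matricellular ligand of *ITGAV* receptors, fell by 2.59, from 521.1 to 86.3 CPM, with 17089, 15259 and 16779 counts in WT and 3033, 2610 and 2783 in *ACADSB*-/- libraries. *EDIL3*, an RGD protein bound by *ITGAV* receptors, was the sole ligand past 2-fold that rose, by 1.68, from 46.5 to 149.2 CPM. *FN1*, the ligand of the *ITGA5* receptor, went from 19183 to 4929 CPM, a fall by 1.96 in the same direction as *ITGA5*. *SPP1*, the listed ligand with the highest FPKM in every library, did not pass (log2 change 0.0501, SE 0.0521, edgeR adjusted p = 0.425).
Of 17 tested partners and receptors of laminins in the basement membrane, 5 were higher, 8 were lower and 4 missed the threshold, with a median of −0.24. *NID2*, a nidogen that links laminin to collagen IV networks, fell by 2.44 (177.2 to 32.8 CPM). *COL7A1*, the anchoring fibril collagen that binds the *LAMA3* laminin, fell by 1.46 (75.6 to 27.4 CPM). *DAG1*, the dystroglycan receptor for laminins, rose by 0.71 (49.0 to 80.0 CPM).
Among the 23 tested activators and adaptors at integrin tails, 4 were higher, 10 were lower and 9 missed the threshold (median −0.15), a share of calls near that of all genes. *TLN2*, the less abundant talin, fell by 2.69 (5.16 to 0.806 CPM) and *TNS1*, a tensin of fibrillar adhesions, by 2.42 (43.0 to 8.03 CPM). Their more abundant relatives went separate ways: *TLN1* fell by 0.55 (616.8 to 419.9 CPM), and *TNS4* rose by 0.92 (1152 to 2180 CPM). Of 24 tested genes of focal adhesion signaling, 5 were higher, 11 were lower and 8 missed the threshold (median −0.12), likewise near the share of all genes, and 0 passed 2-fold. Of 12 tested membrane partners, 4 were higher, 6 were lower and 2 missed the threshold (median −0.11), and *CD44*, a hyaluronan receptor, fell by 1.05 (1863 to 897.2 CPM). The hemidesmosome list had 3 tested genes, since *PLEC* and *DST* were not analysed here. *COL17A1*, its transmembrane collagen, rose by 0.34 (1118 to 1410 CPM), *ERBB2IP*, which binds *ITGB4*, rose by 0.85 (144.2 to 259.5 CPM), and *CD151*, the tetraspanin of laminin-binding integrins, had −0.0957 (edgeR adjusted p = 0.0781).

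**Figure D5:**
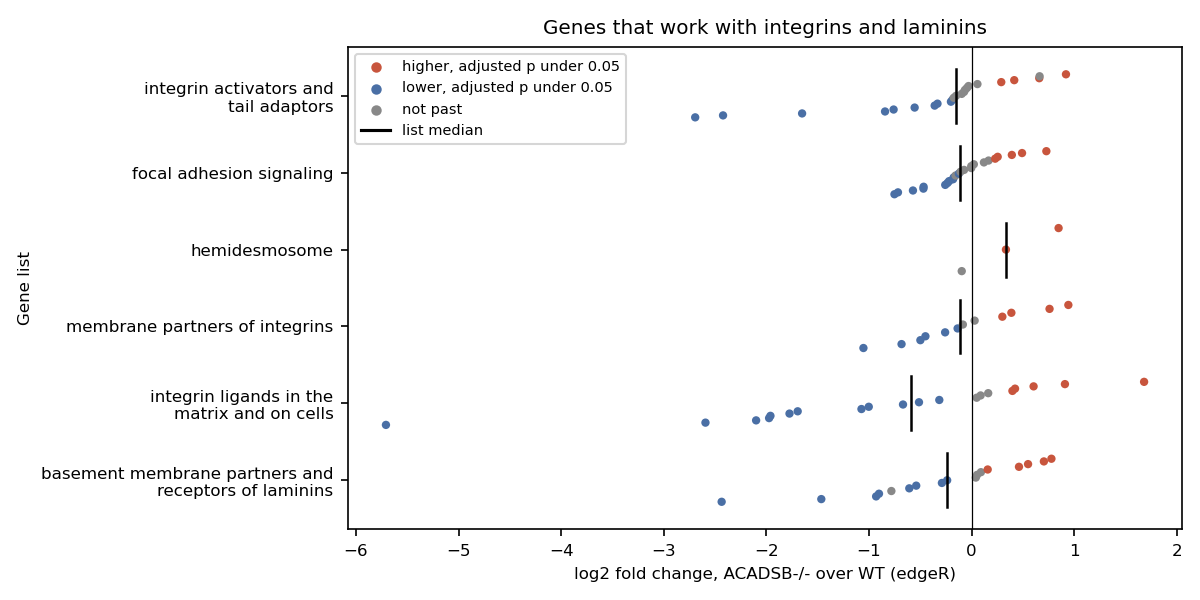
Log2 fold change (*ACADSB*-/- over WT, edgeR) of the tested genes of 6 lists, 1 point per gene, red for higher and blue for lower at an adjusted p under 0.05 and grey otherwise, with a bar at each list's median. The ligand list reached from −5.71 (*LTBP1*) to 1.68 (*EDIL3*) with its median at −0.59, and the focal adhesion list had no gene past 2-fold.

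The annotation of the deposited tables places the members on named chromosomes without a genome build that the sources used here give, so only relative positions are described. *ITGB3* lies on chromosome 19, and the 5 tested genes within 500000 bases on either side split into 2 higher, 0 lower and 3 short of the threshold, with log2 fold changes of −0.29 to 0.80. None of these neighbours fell beyond 2-fold. *ITGA2B*, the platelet partner of *ITGB3*, is 2169721 bases away on the same chromosome. Around *ITGA10* on chromosome 3, 9 of 15 tested neighbours were higher and 0 lower, 1 of them (*ANKRD35*) past 2-fold. Around *ITGA5*, 2 of 19 tested neighbours were higher and 7 lower, and around *ITGA7*, 4 of 30 were higher and 13 lower. The shares over all tested genes were 29.7% higher and 28.6% lower. The model of *ITGA7* overlaps that of *METTL7B* by 45 bases on the opposite strand, and *METTL7B* is outside the count table. The model of *ITGA1* overlaps that of *PELO* by 1916 bases on the same strand, whose counts (7786 in all *ACADSB*-/- and 7781 in all WT libraries) did not follow the fall of *ITGA1*.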

How the data were processed

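Total RNA of 6 bMEC libraries was sequenced. The authors removed adapters, ambiguous and low-quality reads, aligned the rest to the target genome and deposited raw read counts per gene and FPKM values. Bismark 0.12.5 is listed in the submitters' processing notes. The sources used here do not name an aligner for these RNA reads, a counter, a build or an annotation. The authors' own fold changes and p-values were not used, nor were 3 FPKM columns of libraries that match no sample.

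Counts were tested with edgeR 4.0.16 (filterByExpr with minimum count 10, TMM, robust quasi-likelihood, condition alone) in R 4.3.3 over 13720 genes, with Benjamini-Hochberg adjustment over all of them. The steps were tested on simulated counts. DESeq2 1.42.0 and limma 3.58.1 on log2(FPKM + 1) served as alternatives. FPKM gave back whole reads within 0.02 for at least 99.9878% of genes per library. CPM used TMM-scaled totals. Of the chains, 1 enters the fits and counts, but its own values and results resting on it are not reported here. Members and lists were chosen with earlier results of these data known. Full values are given for chains past 2-fold, chains near 0 in 1 group and the 4 most abundant of each class. They are also given for at most 2 rises and 2 falls past 2-fold per partner list. Other names (the remaining detected chains, *FN1*, *SPP1*, *DAG1*, *TLN1*, *TNS4*, *COL17A1*, *ERBB2IP*, *CD151*, *ANKRD35*) were added after their values were seen. ERBIN, CCN1 and CCN2 were matched to older symbols by NCBI gene ID. Library depth, given in the report as a range, limits precision. The exact interval for *ITGB3* covers counting error only, while the standard errors of edgeR also include the spread between libraries.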

Additional observations from a re-analysis of the deposited data

How the results depend on the processing

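The count of chains past the threshold was 18 to 21 over 15 alternatives against 20, and that of chains past 2-fold 5 or 6 over 16 against 6. *ITGA8* was no longer past 2-fold with limma on log2(FPKM + 1). Of 398 single-chain values under the alternatives, 354 kept their direction and side of the threshold, 28 lost the call (most of them under the test beyond 2-fold), 3 gained it and 13 changed sign. The sign changes were all among chains that passed in no setting: *ITGB4* (0.0276 with library totals alone, 0.0293 with limma on log2(FPKM + 1) with and without a filter, 0.0295 with a pseudocount of 0.1, and −0.0690 to 0.0381 with 1 library left out), *ITGB6* (0.0234, 0.0196, 0.0197 and −0.0799 to 0.0312 likewise) and *ITGB8* (−0.18 to 0.18 with 1 library left out). The summed alpha chains went from a log2 difference of 0.0210 to −0.0644 in CPM, and to −0.0261 to 0.0510 with 1 library left out. Over all genes, 1402 calls at 2-fold fell to 855 with a mean count of at least 50, to 661 with the test beyond 2-fold, and to 541 and 546 with limma on log2(FPKM + 1) without and with a filter, since a pseudocount of 1 shrinks low genes. Replicate numbers are shared by the groups. Deviations of same-numbered libraries from their group means had correlations of −0.0402, −0.0256 and −0.0236, beside −0.00804 to 0.0341 for the other pairs. With 3 libraries per group, values this close to 0 cannot show whether same-numbered libraries share a culture or a day. With the replicate block 19 chains passed instead of 20 (6 at 2-fold) and 7806 instead of 7990 genes. Depth limited statements on chains with few reads, such as *LAMA1*.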
